A study of Mus musculus with 8 samples.

Results

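Ubiquitous wide open sites are stretches of at least 1500 bp of accessible chromatin that were listed in every one of 8 DNase-seq libraries of mouse mammary epithelial cells. They were found by merging the hotspots of all 8 lists wherever they overlapped by at least 1 bp, and by keeping merged sites that were present in all 8 lists and reached the width limit. This gave 2374 wide sites among 12592 sites listed in all 8 libraries (18.9%) and among 99999 merged sites in the series (2.37%). The other 10218 sites listed everywhere were narrower and serve as the comparison. The members were chosen by their listing, position and width in the hotspot lists of all 8 libraries, so these are described below without a test.

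All libraries came from 3134 cells, a murine mammary epithelial line. The derived lines carried a dominant-negative remodeler under tetracycline control, named DNBrg1, DNCHD4 and DNSnf2h, and the 3134 line itself, called parental here, was measured beside them; its labels name no such construct. Per the labels, DNSnf2h is FLAG-tagged human SNF2H with lysine 211 changed to arginine, and DNCHD4 is FLAG-tagged mouse Chd4 with lysine 250 changed to cysteine; both were stably integrated into 3134 cells that hold the tetracycline transactivator. The making of the DNBrg1 line and the number of clones of any line were not given in the sources used here. Each line was measured without tetracycline for 48 hours, when the dominant-negative protein is induced, and with tetracycline (maintenance dose 5 μg/ml), when it is repressed. Parental cells were grown in the same 2 ways. Each group had 1 library, so a difference within 1 line has no replicate, and only what the 4 lines share can be set against a spread, that between lines. With 4 pairs the smallest two-sided exact p by sign changes is 0.125, and p-values are not given.

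DNase I cuts DNA where nucleosomes are missing, moved or unstable, and a hotspot is a region where cuts pile up. Such regions include promoters and enhancers, and a wide one may hold several neighbouring elements. Brg1 drives the SWI/SNF complexes, which slide and evict nucleosomes; Chd4 drives the NuRD complex, which also holds histone deacetylases; Snf2h drives the ISWI complexes, which space nucleosomes. A dominant-negative ATPase can enter such complexes and block their activity. Coordinates are given on mouse build mm9 as the files list them. Genes are not named beside the sites, because no annotation of that build was used here, and the cell type was not checked against marker genes for the same reason. Repeats and copy number at the sites were not checked either.

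The 8 lists held 24890 to 78093 hotspots, and each began at its own lowest peak density, between 5.09 in DNCHD4 cells without tetracycline and 16.4 in DNBrg1 cells with tetracycline. Peak density here is the highest tag density of a site in a library, scaled by the authors with a factor of that library, per the file headers. To what the libraries were scaled is not stated, so levels are compared between sites of 1 library, and ratios between libraries were set against the median ratio of all sites. Within a library every density was a whole multiple of 1 step within 0.05 tags, so densities could be turned into tags. The median wide site held 138 to 668 tags at its peak, which gives a counting error of 3.87% to 8.51%. Total depth is unknown.

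The wide sites had a median width of 1812 bp, with quartiles of 1620 and 2131 bp and a range of 1500 to 11533 bp. Narrower sites had a median of 968 bp. There were 785 members of at least 2000 bp and 98 of at least 3000 bp, while 505 were under 1600 bp. Most sites of this width were listed everywhere: of 3166 merged sites of at least 1500 bp, 74.98% were listed in all 8 libraries and 6 were in a single list. Over all widths, 12592 of 99999 merged sites were listed in all 8. Width was taken over the union of the lists, so it depends partly on how many lists hold a site. The member of median width, on chromosome 1 from 157882368 to 157884180, was 1 hotspot in each library.

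Most wide sites were also wide in at least 1 list by themselves. A single hotspot of at least 1500 bp was present in some library at 1976 members (83.2%), and in every library at 50. The hotspots of a site spanned 1500 bp in each of the 8 libraries at 320 members, and in none of them at 207, which passed the limit only through the union of lists. In all, 24652 hotspots lay in members. One hotspot in every library made up 816 members (34.4%), against 9709 narrower sites (95.02%). More than 3 hotspots in some library were found in 33 members, up to 8.

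How much of a wide site was covered differed by library. The median covered length per wide site was 1398 bp without and 1270.5 bp with tetracycline in DNBrg1 cells, 1651.5 and 1681 bp in DNCHD4 cells, 1036 and 971.5 bp in DNSnf2h cells, and 1469 and 1512.5 bp in parental cells. Without tetracycline, the covered length was greater at 1682 wide sites (70.9%) in the DNBrg1 line and at 992 (41.8%) in the DNCHD4 line. It was greater at 1302 (54.8%) in the DNSnf2h line and at 810 (34.1%) in the parental line. These shares were not counted at narrower sites, so they do not show a trait of wide sites. The median log2 ratio of covered length was 0.10 in DNBrg1, -0.03 in DNCHD4 cells, 0.04 in DNSnf2h and -0.05 in parental cells. In narrower sites of the same strength it was 0.04 in DNBrg1, -0.04 in DNCHD4 cells, -0.02 in DNSnf2h and -0.05 in parental cells. The lowest density of the lists also differed, at 9.19 without and 16.4 with tetracycline in DNBrg1, 5.09 and 8.05 in DNCHD4 cells, 8.06 and 8.03 in DNSnf2h, and 10.04 and 13.02 in parental cells. Density per tag was 0.255 without and 0.586 with tetracycline in DNBrg1, and 0.196 and 0.179 in DNCHD4 cells. It was 0.202 and 0.187 in DNSnf2h, and 0.257 and 0.310 in parental cells. The part of the lowest density or of the density per tag in the covered length was not tested.

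The DNCHD4 lists, which had the lowest density per tag in the cells with tetracycline and the lowest threshold in the cells without, set the outer ends of the merged sites most often. They fixed 31.8% of ends without and 38.6% with tetracycline, ties counted for each list. The share was 7.41% and 1.47% in DNBrg1, 4.00% and 3.096% in DNSnf2h, and 6.38% and 10.3% in parental cells. Single hotspots of at least 1500 bp covered 1349 members (56.8%) without and 1546 (65.1%) with tetracycline in DNCHD4 cells, but 179 (7.54%) and 170 (7.16%) in DNSnf2h cells. In DNBrg1 cells they covered 640 (27.0%) and 335 (14.1%), and in parental cells 717 (30.2%) and 902 (38.0%). A rule that left out both DNCHD4 libraries kept 1775 sites, all of them among the 2374. This check, and those without the other lines, were chosen after seeing the data.

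**Figure D1:**
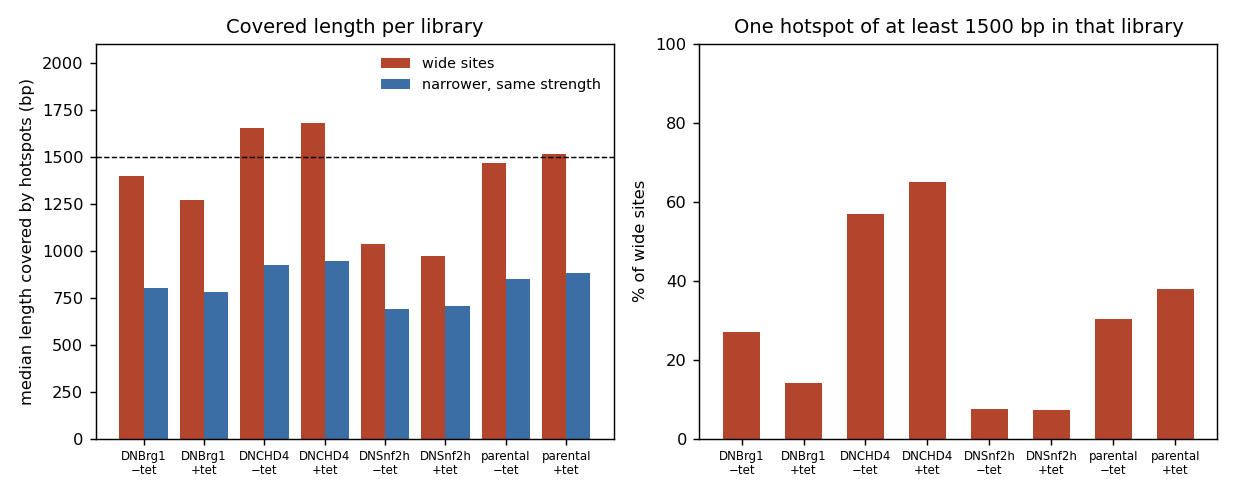
Left, the median covered length in bp per wide site and per narrower site of the same strength in each library. The dashed line marks 1500 bp. Right, the percent of wide sites with a single hotspot of at least 1500 bp in that library. The wide sites cover 971.5 to 1681 bp at the median, with the DNCHD4 libraries at the top and the DNSnf2h libraries at the bottom.

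Peak density was higher at wide than at narrower sites in all 8 libraries. Listing and width come from the same hotspot lists as the density, so this lead may depend partly on the rule. In DNBrg1 cells without tetracycline the median was 70.9 at wide and 42.4 at narrower sites, and with tetracycline it was 104 and 72.6. In DNCHD4 cells it was 121 at wide and 80.7 at narrower sites without tetracycline, and 119.5 and 85.5 with it. DNSnf2h cells had the lowest medians, with 27.8 at wide and 20.6 at narrower sites without, and 25.8 and 21.1 with tetracycline. Parental cells had 91.0 and 61.0 without, and 118 and 80.0 with tetracycline. The lead of wide over narrower sites was thus 1.67-fold and 1.43-fold in DNBrg1 cells without and with tetracycline, 1.501-fold and 1.40-fold in DNCHD4 cells, 1.35-fold and 1.22-fold in DNSnf2h, and 1.49-fold and 1.48-fold in parental cells. The lead was largest in DNBrg1 cells without tetracycline and smallest in DNSnf2h cells with tetracycline.

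**Figure D2:**
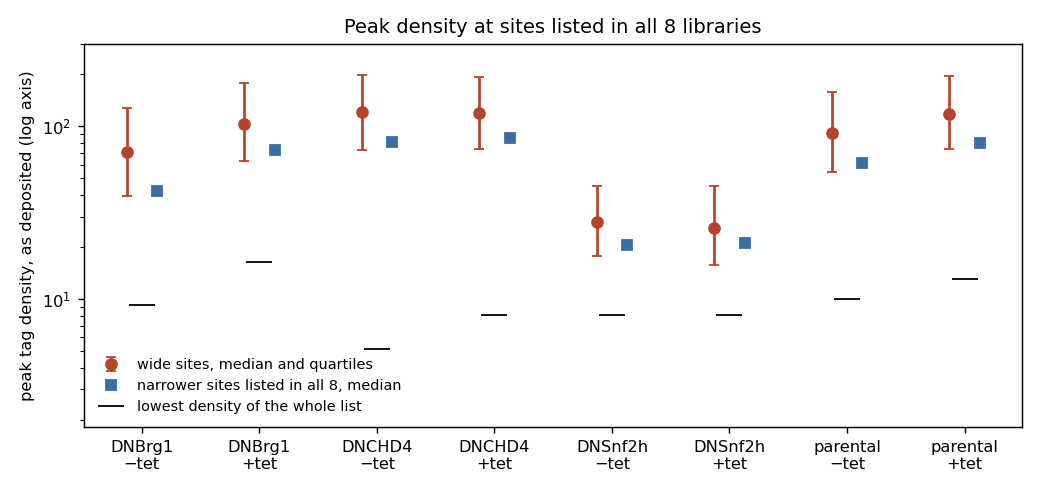
Peak tag density as deposited (log axis) in each library: points with bars are medians and quartiles of the 2374 wide sites, squares are medians of the 10218 narrower sites listed everywhere, and lines mark the lowest density of each list. The wide sites stand above the narrower ones in every library, and the medians of both kinds of site are lowest in the DNSnf2h line on the deposited scale.

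The mean density over a site led by less than its peak. Mean density had medians at wide sites of 14.8 without and 22.8 with tetracycline in DNBrg1 cells, 24.1 and 24.8 in DNCHD4 cells, 6.18 and 5.87 in DNSnf2h, and 19.0 and 25.0 in parental cells. These were 1.29-fold and 1.10-fold the medians of narrower sites in DNBrg1 cells, 1.12-fold and 1.05-fold in DNCHD4 cells, 1.12-fold and 1.02-fold in DNSnf2h, and 1.12-fold and 1.12-fold in parental cells. Mean over peak density was 0.219 at the median wide site, against 0.268 at narrower sites of the same strength. The mean was thus a smaller part of the peak at wide sites, which may also depend partly on the width rule.

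To compare sites of equal strength, the log2 peak density of each site was centred on the median of its library and averaged over the 8 libraries. Wide sites led by 0.55 in this mean; the lead was 0.94 when the DNSnf2h libraries were left out of the rule, and 0.31 over sites at least 2 times the lowest density of every list. They were then placed in 20 bins of equal count, and the narrower sites of each bin were weighted to the same bin shares; 30 narrower sites lay outside the range. At matched strength, the wide sites stood higher by 0.11 on the log2 scale in DNBrg1 cells without tetracycline, and lower by 0.11 (a difference of -0.11) in DNSnf2h cells with tetracycline. In the other 6 libraries the difference lay between -0.04 and 0.03. DNBrg1 cells without tetracycline were the library of highest centred density at 900 members, the most of any library. DNSnf2h cells with tetracycline were the lowest library at 976 members, again the most. These counts were not made at narrower sites. At the same strength, the median centred density of narrower sites was also highest in DNBrg1 cells without tetracycline (0.50). It was also lowest in DNSnf2h cells with tetracycline (0.35), so this order of libraries is not particular to wide sites.

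The strongest member by far lay on chromosome 17 from 39979698 to 39985946 (6248 bp) and was 1 hotspot in every library. Whether this site has several copies in the genome was not tested. Its peak density was 5222 without and 1802 with tetracycline in DNBrg1 cells, 4689 and 1832 in DNCHD4 cells, 1459 and 567 in DNSnf2h, and 4129 and 2126 in parental cells. The site was higher without tetracycline in all 4 lines. Its density as deposited was 2.90-fold higher in DNBrg1 (95% exact binomial interval on tags 2.79 to 3.01), 2.56-fold in DNCHD4 (2.50 to 2.62), 2.57-fold in DNSnf2h (2.47 to 2.68) and 1.94-fold in parental cells (1.89 to 2.00). All intervals here describe counting error alone, because sequenced fragments that carry no molecular identifier may be copies of 1 molecule.

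The next in strength lay on chromosome 15 from 102235416 to 102237516, with 1114 without and 892 with tetracycline in DNBrg1, 1163 and 974 in DNCHD4 cells, 378 and 355 in DNSnf2h, and 1129 and 888 in parental cells. A member of 1512 bp on chromosome 17, from 34740120 to 34741632, held 1256 and 897 in DNBrg1, 1169 and 968 in DNCHD4 cells, 307 and 275 in DNSnf2h, and 1279 and 880 in parental cells. Both had the higher density without tetracycline in every line, by 1.07-fold to 1.45-fold as deposited. The fourth strongest, on chromosome 2 from 22443345 to 22446159, went the other way: 932 without and 959 with tetracycline in DNBrg1, 649 and 1227 in DNCHD4 cells, 275 and 698 in DNSnf2h, and 489 and 737 in parental cells. It was lower without tetracycline in all 4 lines as deposited, least in DNBrg1 (1.03-fold) and most in DNSnf2h (2.53-fold, interval 2.38 to 2.70); once the median shift of each line was removed, the DNBrg1 ratio turned to 0.60 on the log2 scale, while the other lines stayed below 0. The weakest member, on chromosome 19 from 30279216 to 30280920, had 18.9 and 24.02 in DNBrg1, 19.0 and 12.5 in DNCHD4 cells, 10.1 and 9.15 in DNSnf2h, and 11.1 and 22.0 in parental cells. The second weakest lay on chromosome 4 from 146804738 to 146806907, at 11.6 to 18.6 in the 8 libraries.

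The 6 widest members ranged from weak to the strongest of all. The widest member, on chromosome 16 from 3231407 to 3242940 (11533 bp), was pieced together from 42 hotspots and was weak. Its peak density was 37.5 without and 45.1 with tetracycline in DNBrg1, 30.4 and 25.0 in DNCHD4 cells, 19.1 and 17.7 in DNSnf2h, and 26.5 and 29.5 in parental cells. All 4 ratios lay within 1.21-fold of 1 as deposited, and their counting intervals include 1. A 9141 bp site on chromosome 11, from 3055929 to 3065070, was made of 45 hotspots and had 159 to 223 in the 8 libraries. A 6636 bp site on chromosome 3, from 145310196 to 145316832, had 64.9 to 186. A 6526 bp site on chromosome 4, from 3006932 to 3013458, held 25 hotspots at 19.1 to 49.8.

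The question the design puts to each site is how its density differs 48 hours after tetracycline is withdrawn, with the parental line as the background of withdrawal itself. Ratios below are log2 of density without over with tetracycline, minus the median over all merged sites listed in both libraries of the line. That median was -0.64 in DNBrg1, 0.03 in DNCHD4 cells, -0.02 in DNSnf2h and -0.40 in parental cells. Relative to it, the median wide site stood at 0.14 in DNBrg1 (SD 0.58 across sites), 0.02 in DNCHD4 (0.50), 0.16 in DNSnf2h (0.53) and 0.05 in parental cells (0.37). Narrower sites of the same strength stood at 0.07 in DNBrg1, -0.05 in DNCHD4 cells, 0.09 in DNSnf2h and 0.08 in parental cells. Wide minus narrower was therefore 0.07 in DNBrg1, 0.06 in DNCHD4 cells, 0.07 in DNSnf2h and -0.03 in parental cells. These differences do not depend on library scaling, and each is small beside the SD across sites. Their mean over the 4 lines was 0.04 ± 0.05 (SD, n = 4), above 0 in 3 lines and below in 1. By mean instead of peak density, the difference was 0.01 in DNBrg1 and 0.03 in DNSnf2h cells.

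The offset between wide and narrower sites was found mainly among the weaker members. In the 10 weaker bins, wide sites stood above narrower ones by 0.13 in DNBrg1, 0.13 in DNCHD4 and 0.09 in DNSnf2h, while the parental difference was -0.01. In the 10 stronger bins the differences were 0.03, 0.03, 0.04 and -0.03 in the same order of lines. Wide sites were above narrower ones in 18 of 20 bins in DNBrg1, 16 in DNCHD4 cells, 18 in DNSnf2h and 7 in parental cells. Whether lines differ in this beyond library error was not tested.

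**Figure D3:**
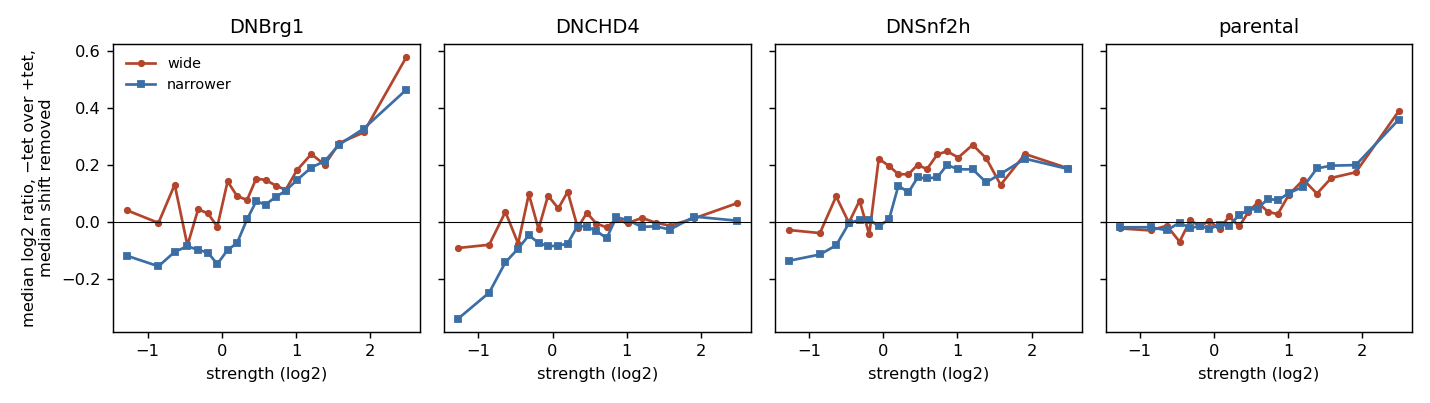
Median centred log2 ratio of peak density, without over with tetracycline, for wide and narrower sites in 20 bins of strength, 1 panel per line. In the 3 dominant-negative lines the wide sites lie above the narrower ones mainly at low strength; in parental cells the curves stay close.

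The share of sites at least 2-fold lower without tetracycline was smaller among wide sites than among narrower sites of the same strength. In DNBrg1 cells 111 wide sites were at least 2-fold lower, which is 4.68% (Wilson interval 3.90 to 5.60), against 9.56% of narrower sites of the same strength and 6.96% of all sites listed in both libraries. In DNCHD4 cells 104 were lower, 4.38% (3.63 to 5.28), against 6.30% and a background of 8.51%. In DNSnf2h cells 74 were lower, 3.12% (2.49 to 3.90), against 5.11% and 6.39%. The share at wide sites was the smallest of the 3 shares in each of these lines. In parental cells 12 were lower, 0.505% (0.289 to 0.881), against 0.881% and 1.82%. In each of the 4 lines, the share at wide sites was below that at narrower ones under all 13 settings run for that line. These settings use the same 8 libraries. In the 10 stronger bins the wide share was above the narrower one in parental cells alone, at 0.168% (2 sites) against 0.0301%. Taking the lines as blocks, wide minus narrower averaged -2.29 ± 1.88 percentage points (SD, n = 4). The Wilson intervals cover counting of sites within 1 pair of libraries, since sites are not replicates, and all sites had to stay above the threshold of both lists.

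At least 2-fold higher densities without tetracycline did not show the same shortfall. In DNBrg1 cells 83 wide sites (3.50%, interval 2.83 to 4.31) were higher, against 3.47% of narrower sites of the same strength and 2.81% of all sites. In DNCHD4 cells 39 were higher (1.64%, 1.20 to 2.24), against 1.09% and 5.38%. In DNSnf2h cells 81 were higher (3.41%, 2.75 to 4.22), against 2.67% and 2.53%. The DNCHD4 share was the only one of these 3 below its background. In parental cells 18 were higher (0.758%, 0.480 to 1.20), against 1.69% and 2.09%. The wide share was near the narrower one in DNBrg1, above it in DNCHD4 and DNSnf2h, and below it in parental cells. Over sites at least 2 times the lowest density of every list, the share was 0.585% of wide against 0.423% of narrower sites in DNCHD4 cells, and 1.36% against 1.26% in DNSnf2h cells. Over the 4 lines as blocks, wide minus narrower averaged 0.0989 ± 0.751 percentage points (SD, n = 4), which is within the spread between lines.

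The balance of higher and lower calls depended on scaling in lines whose median moved. Taken as deposited, 443 wide sites were lower (18.7%) and 8 higher (0.337%) in DNBrg1, against 26.2% and 0.208% of all sites. In parental cells 86 were lower (3.62%) and 3 higher (0.126%), against 8.7% and 0.525%. Nearly all calls of these 2 lines were then lower. DNCHD4 had 94 lower (3.96%) and 44 higher (1.85%), against 7.87% and 5.93%. DNSnf2h had 77 lower (3.24%) and 74 higher (3.12%), against 6.74% and 2.36%. Wide sites stayed below narrower ones of the same strength in the lower calls, with 26.2% of narrower sites lower in DNBrg1, 5.76% in DNCHD4 cells, 5.38% in DNSnf2h and 4.73% in parental cells.

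**Figure D4:**
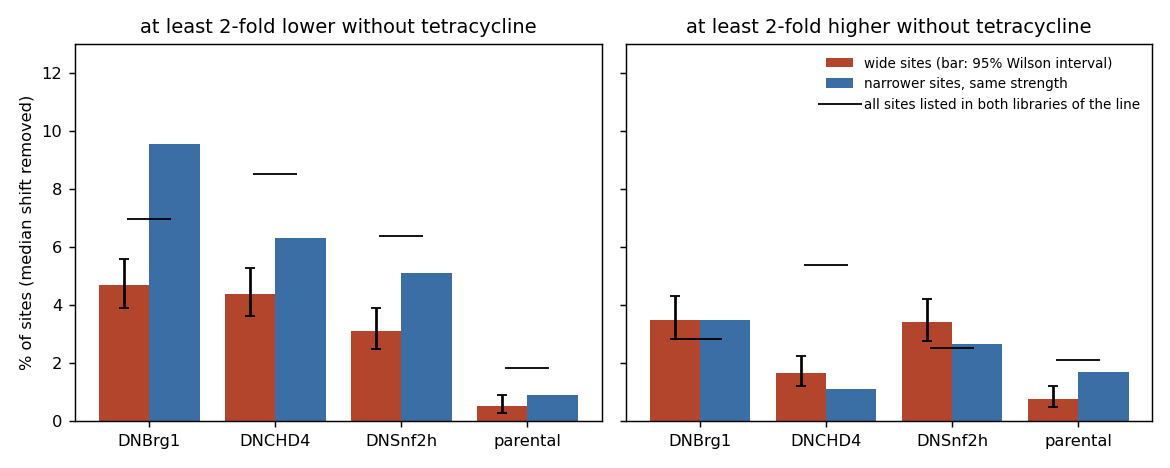
Percent of wide sites (with 95% Wilson intervals) and of narrower sites of the same strength that were at least 2-fold lower (left) or higher (right) without tetracycline after the median shift was removed; lines give the percent of all sites listed in both libraries. Lower calls are fewer at wide sites in each line, at 4.68% against 9.56% in DNBrg1, and higher calls show no such common direction.

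Lower calls were fewest in the classes from 2200 bp on in DNBrg1, DNCHD4 and parental cells, but were even across the wide classes in DNSnf2h cells. In DNBrg1 cells 10.8% of sites under 800 bp and 13.8% of those from 800 to 1000 bp were at least 2-fold lower. The share was 9.49% from 1000 to 1200 bp, 7.39% from 1200 to 1500 bp, 5.10% from 1500 to 1800 bp and 6.51% from 1800 to 2200 bp. From 2200 to 3000 bp it was 1.21% (5 of 412 sites), and 1 of 98 sites from 3000 bp on was lower. Members from 2200 bp on thus held 6 of the 111 lower calls of this line. In DNCHD4 cells the shares were 9.59%, 9.60%, 8.19%, 6.68%, 4.84%, 4.53% and 3.88% for the same classes up to 3000 bp, with 0 of 98 beyond. In DNSnf2h cells they lay between 4.56% and 7.41% under 1500 bp and between 3.03% and 3.25% above it. In parental cells none of the 510 sites from 2200 bp on was lower. Strength also increased with width, with class medians of -0.86 under 800 bp and 0.70 from 3000 bp on, so these shares are not matched on strength.

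In DNBrg1 cells the lowest ratio was at a 1579 bp site on chromosome 15, from 83053603 to 83055182. Its density was 15.8 without and 121 with tetracycline in DNBrg1, 41.5 and 93.0 in DNCHD4 cells, 13.7 and 25.2 in DNSnf2h, and 38.1 and 80.0 in parental cells. It was lower without tetracycline in all 4 lines, by 7.67-fold in DNBrg1 (interval 5.75 to 10.4) and by 1.84-fold to 2.24-fold in the others. A 1676 bp site on chromosome 1, from 194624159 to 194625835, had 21.9 and 163 in DNBrg1, 162 and 243 in DNCHD4 cells, 40.9 and 45.6 in DNSnf2h, and 220.1 and 255 in parental cells. The 7.42-fold lower density of DNBrg1 cells (5.81 to 9.57) was -2.25 on the log2 scale after the median shift was removed, where DNCHD4 stood at -0.62, DNSnf2h at -0.14 and parental cells at 0.19. At the high end, a 2811 bp site on chromosome 4, from 88286674 to 88289485, had 249 and 86.7 in DNBrg1, 125 and 89.5 in DNCHD4 cells, 42.5 and 49.9 in DNSnf2h, and 123 and 79.7 in parental cells. Its ratio was 2.87-fold in DNBrg1 (2.42 to 3.44), 1.39-fold in DNCHD4 and 1.55-fold in parental cells, and it was 1.17-fold lower in DNSnf2h cells.

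In DNCHD4 cells the lowest ratio was at a 1563 bp site on chromosome 9, from 45654199 to 45655762. It had 12.5 without and 32.8 with tetracycline in DNBrg1, 33.9 and 159 in DNCHD4 cells, 22.0 and 64.4 in DNSnf2h, and 46.1 and 135 in parental cells. It was lower in all 4 lines as deposited, by 4.70-fold in DNCHD4 (3.99 to 5.56) and by 2.62-fold to 2.93-fold elsewhere. A 1546 bp site on chromosome 11, from 61410711 to 61412257, was among the 2 lowest ratios in both DNCHD4 and DNSnf2h. Its density was 11.99 and 44.5 in DNBrg1, 28.6 and 126 in DNCHD4 cells, 11.7 and 45.8 in DNSnf2h, and 40.4 and 96.4 in parental cells. All 4 lines were lower there without tetracycline. The highest ratio of DNCHD4 cells after the 6788 bp site described below was at a 3317 bp site on chromosome 11, from 3045580 to 3048897. There 326 without and 87.8 with tetracycline in DNCHD4 stood against 121 and 136 in DNBrg1, 91.3 and 70.4 in DNSnf2h, and 139 and 127 in parental cells, so the ratio of 3.71-fold (3.36 to 4.12) passed the 2-fold limit in DNCHD4 alone among the 4 lines.

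In DNSnf2h cells the highest ratios were at 2 sites of 1617 bp. That on chromosome 11, from 3548448 to 3550065, had 36.1 without and 11.2 with tetracycline in DNSnf2h, 107 and 106 in DNBrg1, 157 and 97.9 in DNCHD4 cells, and 94.2 and 123 in parental cells. That on chromosome 15, from 97661736 to 97663353, had 31.8 and 10.1 in DNSnf2h, 31.4 and 70.9 in DNBrg1, 80.7 and 68.7 in DNCHD4 cells, and 57.2 and 65.4 in parental cells. Both were over 3-fold higher in DNSnf2h cells, at 3.22-fold (2.39 to 4.39) and 3.16-fold (2.30 to 4.39), from values with tetracycline close to the lowest density of that list, 8.03. One of the lowest, a 1645 bp site on chromosome 8 from 14600218 to 14601863, had 13.7 and 47.6 in DNSnf2h, 13.3 and 94.3 in DNBrg1, 40.9 and 118 in DNCHD4 cells, and 66.9 and 87.7 in parental cells. It was lower in the 3 dominant-negative lines by 2.87-fold to 7.11-fold, and by 1.31-fold in parental cells as deposited, where the ratio was 0.01 on the log2 scale once the median shift was removed.

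In parental cells, whose labels name no dominant-negative construct, the highest ratio after the 6788 bp site was at a 1778 bp site on chromosome 1, from 71818291 to 71820069. It had 24.5 without and 25.8 with tetracycline in DNBrg1, 114 and 42.9 in DNCHD4 cells, 52.8 and 25.8 in DNSnf2h, and 98.6 and 36.9 in parental cells. Density was 2.66-fold higher in DNCHD4 cells, 2.05-fold in DNSnf2h and 2.67-fold in parental cells (2.17 to 3.31), and in DNBrg1 cells the counting interval included 1 (0.658 to 1.39). The 2 lowest ratios of parental cells were both on chromosome 4 and were lower in every line, as given next.

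In all, 5 of 2374 members (0.211%) were at least 2-fold changed in the same direction in all 4 lines after the median shift was removed, against 0.382% of narrower sites of the same strength. These 5 were chosen after their values were seen, and as deposited the strongest member stayed under 2-fold in parental cells. Besides the strongest member on chromosome 17, the higher one was the 6788 bp site on chromosome 11 from 116613494 to 116620282, made of 28 hotspots. Its density was 83.4 without and 34.0 with tetracycline in DNBrg1, 323 and 44.7 in DNCHD4 cells, 63.5 and 23.7 in DNSnf2h, and 125 and 40.9 in parental cells. It was higher without tetracycline in every line, by 2.46-fold in DNBrg1 (1.85 to 3.30), 7.21-fold in DNCHD4 (6.31 to 8.27), 2.68-fold in DNSnf2h (2.17 to 3.32) and 3.04-fold in parental cells (2.51 to 3.72). No other member had so high a ratio in DNCHD4 or parental cells.

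The 3 lower ones were narrower, at 1816 to 2135 bp. The site on chromosome 4 from 119604433 to 119606257 had 24.7 without and 126 with tetracycline in DNBrg1, 50.5 and 159.8 in DNCHD4 cells, 21.2 and 60.3 in DNSnf2h, and 47.4 and 148 in parental cells. Its density was lower by 5.09-fold in DNBrg1 (3.99 to 6.54), 3.16-fold in DNCHD4 cells, 2.85-fold in DNSnf2h and 3.12-fold in parental cells. A second site on chromosome 4, from 134510949 to 134512765, had 16.6 and 62.1 in DNBrg1, 49.4 and 137 in DNCHD4 cells, 15.5 and 34.9 in DNSnf2h, and 32.4 and 115 in parental cells. The site on chromosome 13 from 36786720 to 36788855 had 48.0 and 174 in DNBrg1, 84.0 and 187 in DNCHD4 cells, 25.0 and 68.3 in DNSnf2h, and 56.1 and 153 in parental cells. At each of the 3, every library without tetracycline was below the library with tetracycline of its own line, parental cells included.

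**Figure D5:**
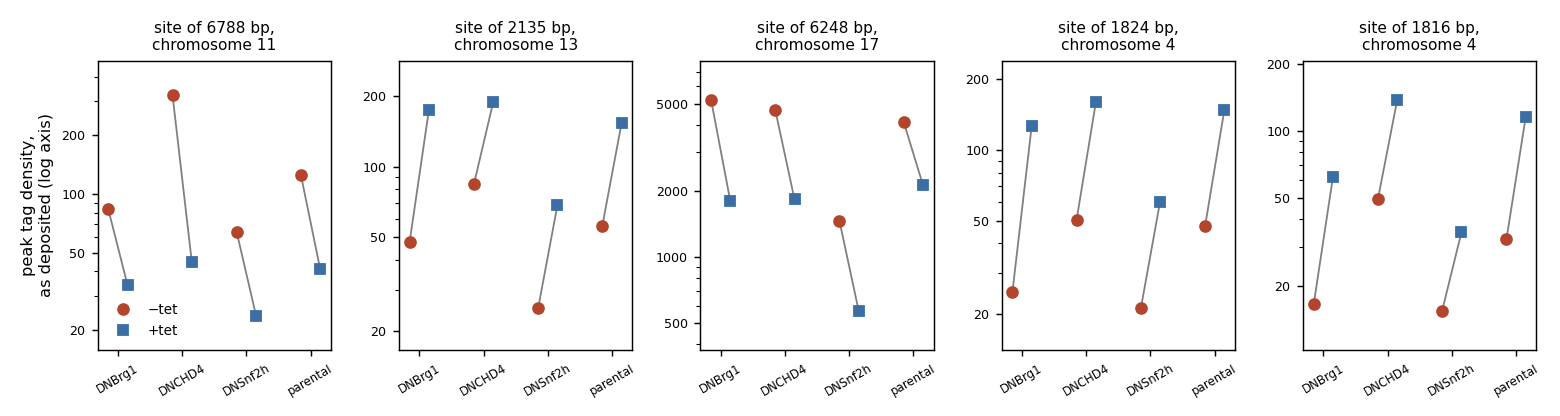
Peak tag density as deposited (log axis, a separate scale per panel) in the 8 libraries at the 5 wide sites that were at least 2-fold changed in all 4 lines after the median shift was removed; lines join the 2 libraries of a line. Libraries without tetracycline are above those with it at the sites of 6788 and 6248 bp, and below at the other 3.

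Changes in at least 1 line were found at 413 wide sites (17.4%), against 22.2% of narrower sites of the same strength, and 1961 wide sites (82.6%) were within 2-fold in all lines. Lower calls were made in 1 line at 149 members, in 2 lines at 52, in 3 lines at 12 and in all 4 at 3. Higher calls were made in 1 line at 187 members, in 2 at 10, in 3 at 2 and in 4 at 2. Lower calls in more than 1 line were thus made at 67 members (2.82%), and higher calls at 14 (0.590%), against 4.89% and 1.21% of narrower sites of the same strength. Of the lower calls, 33 were shared by DNBrg1 and DNCHD4 (29.7% of the DNBrg1 and 31.7% of the DNCHD4 calls). DNCHD4 and DNSnf2h shared 31 (29.8% and 41.9%), and DNBrg1 and DNSnf2h shared 22 (19.8% and 29.7%). At narrower sites of the same strength the shares were 28.5% and 43.2% for DNBrg1 with DNCHD4, 39.4% and 48.6% for DNCHD4 with DNSnf2h, and 17.9% and 33.5% for DNBrg1 with DNSnf2h. The overlap at wide sites was thus not greater than at narrower ones in either share of the DNCHD4 and DNSnf2h pair. Of the 12 lower calls of parental cells, 8 were also lower in DNBrg1 (66.7%), 8 in DNCHD4 (66.7%) and 4 in DNSnf2h (33.3%), against 63.6%, 75.5% and 58.9% at narrower sites of the same strength. The libraries of each line enter more than 1 of these comparisons, so the overlaps are not independent of each other.

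Ratios of the 2374 wide sites were related between lines to different degrees. Spearman's rho across sites was 0.54 between DNCHD4 and DNSnf2h, 0.53 between DNBrg1 and parental, and 0.32 between DNBrg1 and DNCHD4. It was 0.33 between DNCHD4 and parental, 0.16 between DNBrg1 and DNSnf2h, and 0.12 between DNSnf2h and parental. Across the 10218 narrower sites the values were 0.56, 0.49 and 0.48 for the first 3 pairs and 0.47, 0.30 and 0.25 for the others. Sites of a library share its preparation and depth, so these values describe the libraries only.

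Relative to the parental library in the same tetracycline state, each library being centred on the sites listed everywhere, wide sites stood at a median log2 difference of 0.22 in DNBrg1 cells without and 0.00 with tetracycline. The values were -0.05 without and -0.08 with tetracycline in DNCHD4 cells, and -0.13 and -0.23 in DNSnf2h cells. Narrower sites of the same strength were at 0.16 and 0.04 in DNBrg1, -0.07 and -0.02 in DNCHD4 cells, and -0.11 and -0.11 in DNSnf2h cells. The DNSnf2h library with tetracycline, in which the dominant-negative protein is repressed, thus had the largest gap between wide and narrower sites, at -0.12.

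The spread of a site across all 8 libraries, as the SD of its centred log2 density, was 0.42 at the median wide and 0.43 at the median narrower site of the same strength. The most variable member, on chromosome 6 from 67384316 to 67386234, had an SD of 1.51. Its density was 31.9 without and 32.8 with tetracycline in DNBrg1, 274 and 296 in DNCHD4 cells, 155 and 154 in DNSnf2h, and 327 and 269 in parental cells. The second, on chromosome 2 from 38537424 to 38538960, had 10.2 and 16.4 in DNBrg1, 144 and 217 in DNCHD4 cells, 35.5 and 51.4 in DNSnf2h, and 115 and 186 in parental cells. At both, the DNBrg1 libraries were the lowest in both tetracycline states. The most even members had SDs of 0.08 (chromosome 7 from 149269559 to 149271479) and 0.09 (chromosome 8 from 124748346 to 124750014).

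Wide sites were found on all 20 chromosomes listed, and made up between 15.2% of the sites listed everywhere on chromosome 17 and 24.1% on the X chromosome. Their level in DNBrg1 cells differed by chromosome. Relative to the mean of the 6 libraries of the other lines, the median centred log2 density of wide sites in that line was -0.22 without and -0.48 with tetracycline on chromosome 14, and -0.24 and -0.41 on chromosome 18. On chromosome 15 it was 0.58 and 0.48, and on chromosome 19 it was 0.55 and 0.48. Measured in the same way, these sites in parental cells were at 0.23 and 0.15 on chromosome 14, 0.28 and 0.21 on chromosome 18, -0.06 and -0.07 on chromosome 15, and -0.01 and -0.03 on chromosome 19. The reference for parental cells includes the DNBrg1 libraries, so these values are not independent of those in DNBrg1 cells. The difference between chromosomes was thus present in both tetracycline states of the DNBrg1 line. Levels of narrower sites by chromosome are not given here, so whether this is particular to wide sites is not known.

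Wide sites also lay closer to other open sites. The nearest other merged site was 2006.5 bp away at the median, against 2906 bp for narrower sites of the same strength. Another site lay within 5 kb of 1607 wide sites (67.7%), against 62.7% of narrower sites of the same strength. A further wide site lay within 10 kb of 205 members (8.64%). Merging joins sites that overlap, so the distance between what remains depends partly on the rule.

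The 2 members named just inside the width limit and the 2 sites named just outside it had overlapping ranges of density across the 8 libraries. The 2 members are from 10 of exactly 1500 bp. Libraries differ in scale, so the ranges do not compare sites within 1 library. Just inside, at 1500 bp, the site on chromosome 3 from 27051861 to 27053361 had peak densities of 77.9 to 385 in the 8 libraries, and that on chromosome 10 from 74979578 to 74981078 had 42.8 to 277. Just outside, at 1499 bp, the site on chromosome 4 from 3865387 to 3866886 had 32.1 to 521, and that on chromosome 6 from 125490080 to 125491579 had 11.8 to 51.0. At a limit of 1200 bp the rule gave 4635 sites, and at 2000 bp it gave 785.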

How the data were processed

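DNase-seq hotspots of 8 libraries were read from 1 deposited list per library. The submitters' processing notes name CASAVA 1.6 and build mm9. The caller of the hotspots was not given in the sources used here. Values deposited by the authors were a peak and a mean tag density per hotspot (a signal scaled by a factor of the library, per the file headers), a z-score (score) and a p-value. Neither the deposited score nor the deposited p-value supports a result here.

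Hotspots were merged at 1 bp overlap. A site's value was its highest density in a library, and its mean density was weighted by hotspot width. Narrower sites of the same strength were weighted over 20 bins. Ratios were called at 2-fold, without over with tetracycline. Shares have Wilson and tag ratios exact binomial intervals, at 95%. Calling was tested on simulated data with known changes. Alternatives were other width limits, merging at an overlap of 100 bp, the widest single hotspot, members without many hotspots, a density floor, strength from parental cells, 10 bins, mean density, and other centring. The members and lists were chosen with earlier results of these data known. Named sites were the 6 widest, 4 strongest, 2 weakest, 2 highest and 2 lowest ratios per line, 2 on each side of the limit, 2 most and 2 least variable, and the one of median width. Scripts ran in Python 3.11.15 with pandas 2.3.3, numpy 2.4.6, matplotlib 3.10.9 and scipy 1.17.1.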

Additional observations from a re-analysis of the deposited data

Results flagged for a closer look

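The median log2 ratio of wide minus narrower sites of the same strength was 0.0718 in DNBrg1, 0.0643 in DNCHD4 and 0.0662 in DNSnf2h cells, but -0.0266 in parental cells, so the parental line went the other way. With 1 library per group this difference was not tested. By mean density the value was 0.0111 in DNBrg1 and 0.0282 in DNSnf2h cells.

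At 4 wide sites (0.168%, against 0.169% of narrower sites of the same strength), 1 line was at least 2-fold higher and another at least 2-fold lower without tetracycline after the median shift was removed; they were chosen after their values were seen and the differences were not tested. The site on chromosome 11 from 101488134 to 101490494 had a centred log2 ratio of 1.07 in DNBrg1 and -1.44 in DNCHD4 cells. Its densities were 108 without and 80.3 with tetracycline in DNBrg1, and 46.4 and 123 in DNCHD4 cells. The site on chromosome 13 from 23390186 to 23392345 had 1.07 in DNBrg1 and -1.26 in DNSnf2h cells, with densities of 78.1 and 58.0 in DNBrg1, and 9.47 and 23.0 in DNSnf2h cells. The site on chromosome 13 from 52753691 to 52755389 had 1.09 in DNBrg1 and -1.13 in DNCHD4 cells, with 54.3 and 39.8 in DNBrg1, and 50.3 and 108 in DNCHD4 cells. A member of 1951 bp on chromosome 18 had 1.02 in DNSnf2h and -1.24 in DNBrg1 cells, with 21.4 and 10.6 in DNSnf2h, and 11.2 and 41.6 in DNBrg1 cells. The ratio of DNBrg1 cells as deposited was 1.35-fold, 1.35-fold and 1.36-fold higher at the first 3 sites, so these calls rest on the removed median shift of -0.64.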

How the results depend on the processing

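No paired analysis was possible because, within a line, each tetracycline state has 1 library; what the 4 lines share was averaged with the line as block in the results. Over all alternatives, 165 values moved by less than their margin (1.5 times for a count, otherwise the 95% interval) and 39 moved by more. Among the medians, 0 changed sign. A reversal was looked for in medians alone, as a percent or a count has no sign to change. The number of wide sites was 4635 at 1200 bp, 785 at 2000 bp, 1539 at 2 times the lowest density of every list, and 816 with 1 hotspot in every library (added after seeing the data, as were rules without a line). The log2 lead in strength was 0.589 at 2000 bp, 0.314 with the density floor, 0.772 with 1 hotspot, 0.674 without DNBrg1 and 0.939 without DNSnf2h libraries. Mean over peak density, wide minus narrower, was -0.0463 at 1200 bp, -0.0604 at 2000 bp, -0.0421 with 1 hotspot, -0.0531 without DNCHD4 and -0.0579 without DNSnf2h. The spread difference was -0.00501 with 1 hotspot and -0.0233 without DNCHD4.

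The percent at least 2-fold lower was 5.998 at 1200 bp, 3.18 at 2000 bp and 18.7 not centred in DNBrg1. In DNCHD4 it was 5.50 at 1200 bp, 3.57 at 2000 bp, 3.54 centred on sites listed everywhere and 3.55 with 1 hotspot. In parental cells it was 0.260 with the floor, 3.62 not centred and 0.245 with 1 hotspot. The percent higher in DNCHD4 was 0.585 with the floor and 2.996 without DNSnf2h; in DNSnf2h it was 1.36 with the floor and 2.57 centred on sites listed everywhere. By mean density it was 4.68 in DNBrg1 and 2.11 in parental cells, and not centred 0.337 in DNBrg1 and 0.126 in parental cells. The median ratio, wide minus narrower, was 0.102 at 2000 bp and 0.0111 by mean density in DNBrg1, 0.0410 with the floor in DNCHD4, and 0.0282 by mean density and 0.103 without DNBrg1 libraries in DNSnf2h. The cause of each was not tested. The wide share of higher calls in DNBrg1 was above the narrower share in 10 of 13 settings and below it in 3. Depth limits single sites: the lowest site of a list rests on few tags, and a site below a list's threshold has no value.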
